A study of Mus musculus with 3 samples.

Results

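Genes used to recognise pericytes were followed in healing mouse skin wounds. They were *Rgs5*, *Pdgfrb*, *Cspg4*, *Notch3*, *Mcam*, *Kcnj8*, *Abcc9* and *Higd1b*, 8 genes taken by symbol from 32285 measured. All 8 symbols occurred once in the matrices and all 8 had UMIs (unique molecular identifiers, each counting 1 captured RNA molecule) in every section.

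Pericytes are the mural cells that wrap capillaries inside the basement membrane they share with the endothelium. They are recruited to growing vessels by PDGF-B from endothelial cells, which acts on the receptor PDGFRB, and Notch signalling from the endothelium through NOTCH3 helps them to mature. In skin wounds, capillaries sprout into granulation tissue and regress as the scar forms, so genes of both cell types can be followed over healing. Many genes used to recognise pericytes are also transcribed elsewhere, among them *Pdgfrb* in fibroblasts, *Mcam* in endothelium and melanocytes, *Cspg4* in melanocytes and hair follicles, and *Abcc9* in striated muscle.

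The study placed frozen skin wound sections of C57BL/6J mice on Visium slides, whose barcoded spots each capture polyadenylated RNA from a small area that can hold several cells. There was 1 section each from Day 3, Day 7 and Day 14 post injury, with no other treatment or allele. The sections therefore have no replicate, no test between days was possible, and intervals cover counting error only. Those of shared-spot ratios are instead binomial intervals over the spots of 1 section. Per the study's methods, wounds were full-thickness excisions in the back skin of age-matched males.

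The marked tissue covered 664, 549 and 697 spots of the Day 3, Day 7 and Day 14 sections, with 1772259, 4442962 and 4611723 UMIs and median depths of 1513, 6687 and 4827 UMIs per spot. Spots outside it held 49.0%, 59.2% and 50.6% of the UMIs of the slides, in the same order, and 360, 1477 and 1282 of them had at least 1000 UMIs. The marked area is therefore not the only part of a slide with RNA. The results below used the marked spots unless all spots of the slide are named. All 3 sections listed the same spot barcodes, which are fixed positions of the slide.

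In the GENCODE M21 annotation of GRCm38, the build named mm10 in the submitters' notes, all 8 are protein-coding genes. *Rgs5* (ENSMUSG00000026678) lies on the plus strand at chr1:169655501-169695813, *Mcam* (ENSMUSG00000032135) at chr9:44134469-44142727, *Cspg4* (ENSMUSG00000032911) at chr9:56865033-56899870 and *Higd1b* (ENSMUSG00000020928) at chr11:102835849-102838040, also on the plus strand. *Notch3* (ENSMUSG00000038146) lies on the minus strand at chr17:32120820-32166852. *Kcnj8* (ENSMUSG00000030247) at chr6:142564837-142571614 and *Abcc9* (ENSMUSG00000030249) at chr6:142587862-142702315 are neighbours on the minus strand, 16247 bases apart with no gene between them. They encode the pore and the regulatory subunit of a vascular ATP-sensitive potassium channel. *Notch3*, *Mcam* and *Abcc9* each overlap 1 antisense gene. How the counting treated strand is not given in the sources used here, so reads of these pairs may not be told apart.

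Promoters of 300 bases, from 250 bases before the transcription start, were matched in RefSeq (GRCm38.p6) for 6 of the 8 genes. Those of 3 genes are shown because they are the members whose positions in the tissue differed most, as described further on. Capitals mark GC boxes (GGGCGG on either strand) and a match to the MEF2 motif, which is bound by muscle transcription factors. The windows are chr1:169655251-169655550 on the plus strand for *Rgs5*, chr6:142702225-142702524 on the minus strand for *Abcc9* and chr9:44134408-44134707 on the plus strand for *Mcam*.
Rgs5: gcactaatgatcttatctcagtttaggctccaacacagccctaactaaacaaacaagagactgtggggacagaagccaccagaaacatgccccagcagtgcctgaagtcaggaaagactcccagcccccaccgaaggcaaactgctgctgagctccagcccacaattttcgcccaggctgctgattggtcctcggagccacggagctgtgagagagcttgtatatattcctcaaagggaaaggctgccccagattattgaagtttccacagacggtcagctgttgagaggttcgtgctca
Abcc9: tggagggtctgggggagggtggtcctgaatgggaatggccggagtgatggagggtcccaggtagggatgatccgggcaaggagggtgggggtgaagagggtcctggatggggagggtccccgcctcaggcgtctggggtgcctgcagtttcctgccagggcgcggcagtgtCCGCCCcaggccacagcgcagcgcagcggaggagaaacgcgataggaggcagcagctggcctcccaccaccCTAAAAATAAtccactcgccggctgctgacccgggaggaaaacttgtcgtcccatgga
Mcam: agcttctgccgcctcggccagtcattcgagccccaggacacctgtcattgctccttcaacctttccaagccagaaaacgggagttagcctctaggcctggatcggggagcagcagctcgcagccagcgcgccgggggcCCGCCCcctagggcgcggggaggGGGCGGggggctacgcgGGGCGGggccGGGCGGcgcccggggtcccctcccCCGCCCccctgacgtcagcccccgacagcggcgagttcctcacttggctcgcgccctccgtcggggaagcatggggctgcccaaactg

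The *Mcam* promoter held 5 GC boxes, that of *Abcc9* held 1 and that of *Rgs5* held 0. A GC box was found in 35.7% of 32851 promoters of this length and in 4 of the 6 matched here, namely *Abcc9*, *Cspg4*, *Mcam* and *Notch3*. GC content was 72.7% for *Mcam*, 65.7% for *Abcc9* and 52.3% for *Rgs5*, against a median of 52.7% over all promoters. The MEF2 motif, searched on both strands, was present in 3.19% of all promoters and, of the 6, only in that of *Abcc9*, where it spans the annotated start. The RBPJ core TGGGAA, through which Notch acts, occurred in 25.6% of all promoters and in those of *Abcc9* and *Kcnj8*. The TATA box TATAAA, the E-box CACGTG and the CArG box were in 0 of the 6, and in 13.6%, 7.15% and 1.63% of all promoters. The SMAD motif CAGAC was in 49.6% of all promoters and in 5 of the 6, all but that of *Mcam*. The FOX motif TGTTTA was in 13.4% of all promoters and, of the 6, only in that of *Rgs5*. Matches to the RBPJ, SMAD and FOX motifs are not marked in the sequences above. All of these are letter matches and not evidence of binding.

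The first comparison asked how each gene's level, given in CPM (UMIs per 1000000 UMIs of the section), differed over healing. Together the 8 genes were highest on Day 7, at 687 CPM (95% Poisson interval 663 to 712). Day 3 had 396 CPM (367 to 426) and Day 14 had 332 CPM (316 to 349). They were thus 1.74-fold higher on Day 7 than on Day 3 (1.60 to 1.89), and lower on Day 14 than on Day 7 by a log2 ratio of -1.05 (-1.14 to -0.96). A gene was called higher or lower when its CPM differed by at least 1.5-fold and the 95% interval of the ratio left out no change. By this rule 5 of the 8 genes were higher on Day 7 than on Day 3 and 0 were lower, where 15.9% of 12541 genes were higher and 14.2% lower. With all spots of the slide, marked or not, 3 of the 8 were higher, where 15.5% of genes were, since *Rgs5* (log2 ratio 0.51, 0.37 to 0.66) and *Notch3* (0.48, 0.18 to 0.80) came under the fold. From Day 7 to Day 14, 5 of the 8 were lower and 0 higher, where 14.7% of 13412 genes were lower and 22.3% higher. Between Day 3 and Day 14, 2 of the 8 were higher and 3 lower on Day 14, against 24.4% and 13.6% of 12866 genes. The share called higher was thus near that of all genes. With TMM factors, by which 18.5% of genes were higher and 17.7% lower, 1 of the 8 was higher, as *Notch3* had a log2 ratio of 0.50 (0.07 to 0.95), and DESeq2 factors (18.1% of genes higher) and all spots of the slide (22.2%) also left only *Cspg4* higher.

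Comparing Day 7 with Day 3, the median log2 ratio of the 8 genes was 0.84 and that of all genes tested 0.04. The medians were -1.12 and 0.13 when Day 14 was set against Day 7, and 0.02 and 0.19 when it was set against Day 3. In pooled tissue, fewer cells of a type and less RNA per cell cannot be told apart. The 3 sections also differed in tissue makeup. All 10 genes of a neutrophil list were lower on Day 7 than on Day 3, 9 of 10 genes of a granulation tissue list were higher on Day 7 than on Day 3, and on Day 14 all 6 genes of a melanocyte list and 5 of 10 genes of a hair follicle and sebaceous gland list were higher than on Day 3, with 2 of these 10 lower. Of a fibroblast list, 5 of 10 genes were higher and 0 lower on Day 7 than on Day 3 (median log2 ratio 0.75), and 9 of 10 were lower on Day 14 than on Day 7 (median -1.13), close to the medians of the 8 genes. The part of these differences in the results below was not tested.

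**Figure D1:**
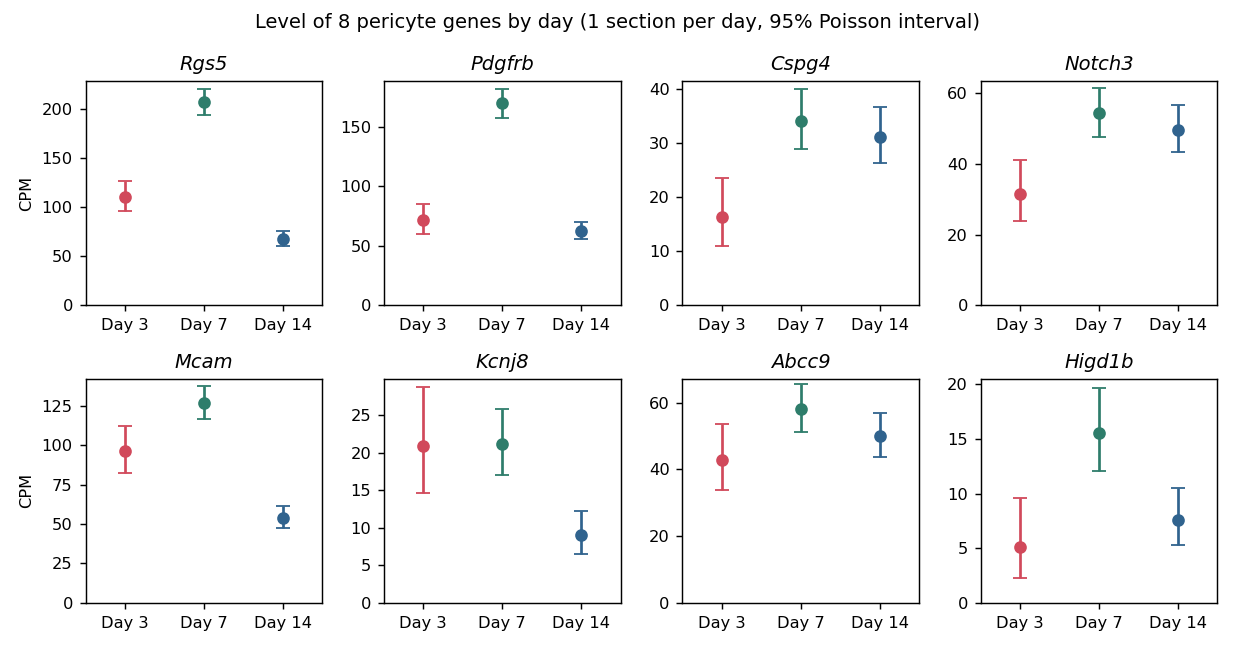
Level of each of the 8 genes in CPM by day, 1 panel per gene with its own axis from 0; points are the 1 section of each day and bars the 95% Poisson interval. *Rgs5* and *Pdgfrb* peak on Day 7 at 207 and 170 CPM, *Cspg4*, *Notch3* and *Abcc9* stay near their Day 7 level on Day 14, and *Kcnj8* is lowest on Day 14, at 9.11 CPM.

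Of the receptors, *Pdgfrb* had 127, 755 and 289 UMIs in the Day 3, Day 7 and Day 14 sections, the order kept for all values below, which is 71.7, 170 and 62.7 CPM. Its level on Day 7 was 2.37-fold that on Day 3 (1.96 to 2.88), while Day 14 and Day 3 did not differ beyond counting error (log2 ratio -0.19, interval -0.50 to 0.12). *Notch3* had 56, 241 and 229 UMIs, or 31.6, 54.2 and 49.7 CPM. It was higher on Day 7 (log2 ratio over Day 3 0.78, interval 0.35 to 1.23) and on Day 14 (0.65, 0.22 to 1.10, under the fold with the other scalings given above), and these later days did not differ beyond counting error. By CPM, Day 14 was thus above Day 3 beyond counting error for *Notch3* and not for *Pdgfrb*. The scaling matters here, since the all-gene median log2 ratio for Day 14 over Day 3 was 0.19 by CPM and 0.04 with TMM factors.

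*Cspg4*, which encodes the NG2 proteoglycan, showed the same order as *Notch3*, with 29, 152 and 144 UMIs or 16.4, 34.2 and 31.2 CPM. Day 14 was 1.91-fold higher than Day 3 (1.27 to 2.95). *Mcam*, which encodes the adhesion molecule CD146, had 171, 563 and 249 UMIs, or 96.5, 127 and 54.0 CPM. Its Day 7 level was 1.31-fold that on Day 3 (1.10 to 1.57), under the 1.5-fold limit, and its Day 14 level was lower than on Day 3 by a log2 ratio of -0.84 (-1.12 to -0.55). The *Mcam* level on Day 14 was thus below both earlier days.

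The channel subunits *Kcnj8* and *Abcc9* did not move together. *Kcnj8* had 37, 94 and 42 UMIs, or 20.9, 21.2 and 9.11 CPM, so that Day 3 and Day 7 did not differ beyond counting error and Day 14 was lower than Day 3 (log2 ratio -1.20, interval -1.87 to -0.52). *Abcc9* had 76, 258 and 231 UMIs, or 42.9, 58.1 and 50.1 CPM, and was past the fold between no pair of days. The other pore-forming subunit gene *Kcnj11*, used in striated muscle and islets, was at 10.2, 15.3 and 19.1 CPM, higher on Day 14 than on Day 3 (log2 ratio 0.91, 0.17 to 1.73). *Abcc8*, which encodes the other regulatory subunit, had 0, 0 and 1 UMI.

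*Rgs5*, which encodes a regulator of G-protein signalling and is the pericyte marker the study used in its single-cell data, had 196, 919 and 313 UMIs. Its level of 207 CPM on Day 7 (194 to 221) compared with 111 CPM (95.7 to 127) on Day 3 and 67.9 CPM (60.6 to 75.8) on Day 14, with no overlap between the 3 intervals. Of 9 listed RGS genes, 8 of which had enough UMIs, only *Rgs5* was past the fold on Day 7 against Day 3, where 30.1% of all genes were. *Higd1b*, a gene of the hypoxia-induced domain family, was the sparsest member, with 9, 69 and 35 UMIs. Day 7 was above Day 3 (log2 ratio 1.61, 0.61 to 2.80) and Day 14 was below Day 7 (-1.03, -1.66 to -0.43), whereas Day 14 and Day 3 did not differ beyond counting error.

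These changes altered the makeup of the set. *Rgs5* contributed 28.0% of the members' UMIs on Day 3 (exact binomial interval 24.7 to 31.4), 30.1% on Day 7 and 20.4% on Day 14 (18.4 to 22.5). *Notch3* contributed 7.99% and 7.90% on Day 3 and Day 7 and 14.9% on Day 14 (13.2 to 16.8), and *Cspg4* went from 4.14% and 4.98% to 9.40% (7.98 to 11.0). The Day 14 signal therefore drew more on *Notch3*, *Cspg4* and *Abcc9* (15.1%, against 10.8% on Day 3 and 8.46% on Day 7).

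Genes of related lists were followed by the same rule. On Day 7 against Day 3 it called 15.9% of 12541 genes higher and 14.2% lower. Of 12 other pericyte genes, 4 were higher on Day 7 than on Day 3, among them *Cox4i2*, *Gucy1a1* and *Anpep*, 2 were lower (*Vtn* and *Ndufa4l2*), and the median log2 ratio of the 11 genes with enough UMIs was 0.37. *Gucy1a1*, a subunit of the nitric oxide receptor of mural cells, went from 6.21 to 17.1 and then 4.12 CPM. *Ndufa4l2*, which encodes a mitochondrial protein induced by low oxygen, went the other way, from 109 to 48.8 and then 64.8 CPM. From Day 7 to Day 14, 4 of the 12 were lower and 0 higher, where 14.7% of all genes were lower and 22.3% higher. Genes named as pericyte markers hence did not share 1 course.

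Among 10 smooth muscle genes, 5 were higher on Day 7 than on Day 3 and 1 was lower, and *Acta2*, the actin of smooth muscle cells and myofibroblasts, was at 93.1, 474 and 174 CPM. Of the 6 PDGF genes, *Pdgfrb*, *Pdgfa*, *Pdgfc* and *Pdgfd* were higher on Day 7 than on Day 3. The ligand gene *Pdgfb*, released by endothelium, was at 27.1, 39.6 and 23.2 CPM, a log2 ratio of 0.55 for Day 7 over Day 3 (0.08 to 1.04) that stayed under the fold. Of 13 Notch genes, 7 were higher on Day 14 than on Day 3 and 1 was lower, where 24.4% of all genes were higher and 13.6% lower. *Heyl*, a Notch target of mural cells, followed *Notch3*, at 6.21, 29.7 and 24.9 CPM, whereas the endothelial ligand gene *Dll4* had 21, 31 and 6 UMIs (log2 ratio of Day 14 over Day 3 -3.19) and *Jag1*, a ligand gene of endothelium and epithelium, at 34.4, 35.8 and 78.7 CPM. The angiopoietin gene *Angpt1*, which pericytes secrete, was lower on Day 14 than on Day 3 (13.0, 7.88 and 3.69 CPM), as was *Angpt2* of sprouting endothelium (16.9, 14.2 and 2.17 CPM).

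The second comparison set the pericyte genes against the endothelium, to see whether they moved with it. *Pecam1* and *Cdh5*, which encode junction proteins of endothelial cells, had together 342, 843 and 318 UMIs, or 193, 190 and 69.0 CPM. Their sum did not differ between Day 3 and Day 7 beyond counting error (log2 ratio -0.02, -0.21 to 0.16) and was 2.75-fold higher on Day 7 than on Day 14 (2.42 to 3.14). For each endothelial UMI, Day 3 had 2.05 UMIs of the 8 genes (1.80 to 2.34), Day 7 had 3.62 (3.35 to 3.91) and Day 14 had 4.82 (4.27 to 5.45). The ratio was 1.77-fold higher on Day 7 than on Day 3 (1.51 to 2.06). The 12 other pericyte genes summed did not show this, with 1.94 and 1.92 UMIs per endothelial UMI and a ratio of 0.989 (0.844 to 1.16).

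Per endothelial UMI, the same 5 of 8 genes were higher on Day 7 than on Day 3 (*Rgs5*, *Pdgfrb*, *Cspg4*, *Notch3* and *Higd1b*), against 16.4% of 12539 genes. The endothelial genes did not share 1 course, however: *Pecam1* was at 125, 95.7 and 43.8 CPM and *Cdh5* at 68.3, 94.1 and 25.2 CPM. The log2 ratio of the 8 genes for Day 7 over Day 3 was thus 1.18 per *Pecam1* UMI and 0.33 per *Cdh5* UMI (0.01 to 0.65). Of 12 endothelial genes, *Cldn5* was higher in CPM on Day 7 than on Day 3, *Plvap* was lower and 10 were neither. Of all genes, 15.9% were higher and 14.2% lower in CPM.

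From Day 7 to Day 14 the 8 genes and the endothelial pair were both lower, and the ratio between them was higher, with a log2 ratio per endothelial UMI of 0.41 (0.20 to 0.62), which became 0.08 per *Pecam1* UMI. Only *Cspg4*, *Notch3* and *Abcc9* were past the fold, by log2 ratios of 1.33, 1.33 and 1.25. *Rgs5* and *Pdgfrb* did not differ beyond counting error, at 1.09 and 0.984 UMIs per endothelial UMI for *Rgs5* and 0.896 and 0.909 for *Pdgfrb*. Because the endothelial pair itself was low on Day 14, 87.2% of 13410 genes were higher on Day 14 than on Day 7 by this measure, with a median log2 ratio of 1.59, and 87.6% of 12864 genes were higher than on Day 3, with a median of 1.67. The 7 of 8 members higher on Day 14 than on Day 3 were all but *Kcnj8*. The summed members, at 1.23 over Day 3 (0.97 to 1.49), lay below that median of 1.67, whereas *Cspg4* (2.41, 1.78 to 3.08) lay above it. *Notch3* (2.13, 1.65 to 2.64), *Higd1b* (2.06, 0.95 to 3.33) and *Abcc9* (1.71, 1.26 to 2.16) had intervals that held the median.

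**Figure D2:**
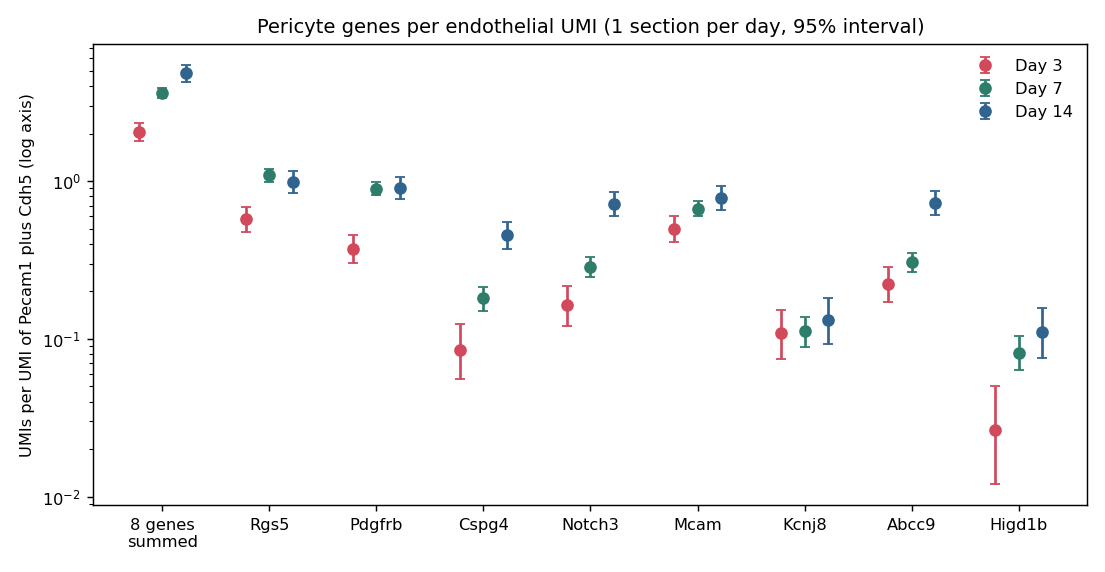
UMIs of the 8 genes, summed and singly, per UMI of *Pecam1* plus *Cdh5* on a log axis; points are the 1 section of each day and bars the exact 95% interval. The sum goes from 2.05 to 3.62 and 4.82, *Rgs5* and *Pdgfrb* level off after Day 7, and *Kcnj8* stays between 0.108 and 0.132.

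The third comparison asked whether pericyte and endothelial genes were found in the same spots. Each spot was thinned to 1000 UMIs, so that depth could not set the shares, which left out 238, 24 and 18 shallower spots. After thinning, a UMI of any of the 8 genes was found in 27.5% of 426, 47.8% of 525 and 32.7% of 679 spots, against 39.8%, 88.2% and 78.9% of all spots under tissue without thinning. A UMI of *Pecam1* or *Cdh5* was found in 13.8%, 20.4% and 5.45% of the thinned spots. On Day 3, 27 spots held both, where 16.2 would be expected if the shares were independent, a ratio of observed to expected of 1.67 (1.14 to 2.29). On Day 7, 61 spots held both against 51.2 expected, a ratio of 1.19 (0.94 to 1.48), and on Day 14, 18 against 12.1, a ratio of 1.49 (0.89 to 2.30). These numbers moved with the random draw of UMIs, and over 20 draws the median ratio was 1.31 for Day 3 (range 1.02 to 1.71), whereas Day 7 gave 1.06 (0.85 to 1.23) and Day 14 gave 1.11 (0.80 to 1.51). All 20 draws of Day 3 were thus above 1, and draws of the later days fell on both sides. Thinned to 500 UMIs, the Day 3 ratio was 0.92 (0.30 to 2.06), so it does not hold at that depth. At 1000 UMIs on Day 3, the 8 genes shared 87 spots with the macrophage genes *Cd74* or *Lyz2*, where 87.1 were expected. They shared 75 with the epidermal genes *Krt14* or *Lgals7*, where 78.3 were expected. These partner genes were in 74.4% and 66.9% of the spots, so their ratios had little room above 1. Such ratios cannot be set against that of the endothelial pair. In 1 draw of UMIs, the macrophage ratio was 0.97 (0.88 to 1.05) on Day 7 and 1.15 (1.02 to 1.27) on Day 14. Fibroblast and skeletal muscle genes were in nearly all spots and cannot be used for such a ratio.

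**Figure D3:**
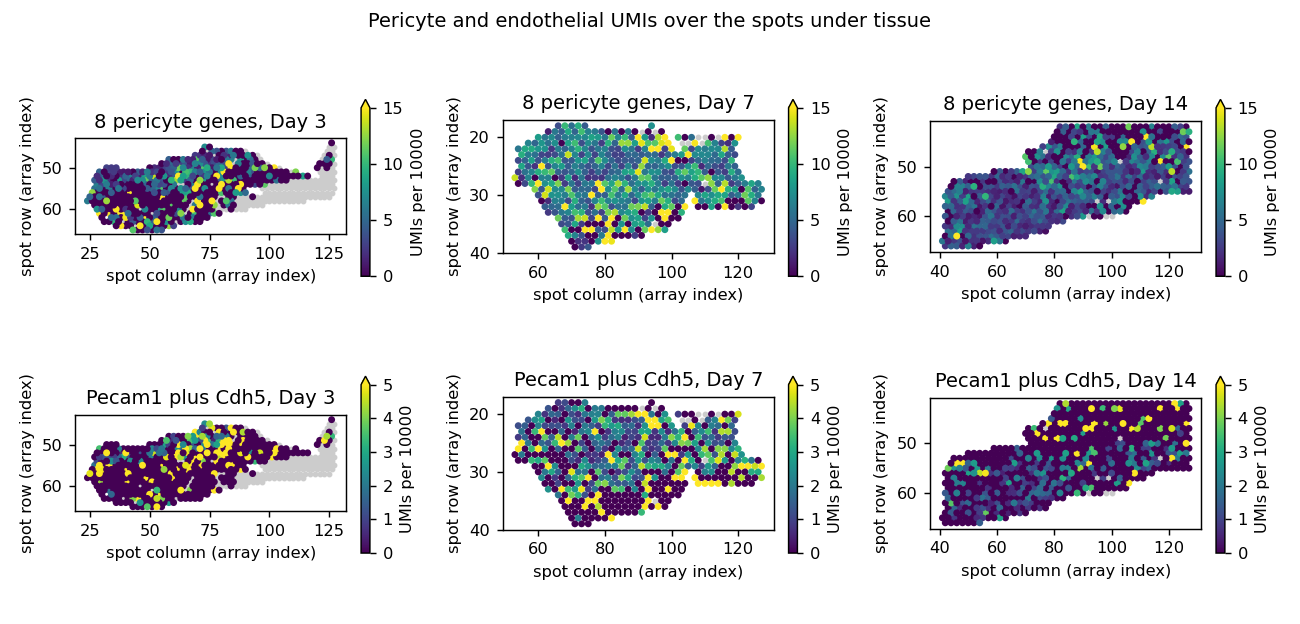
Spots under tissue of each section at their array position, coloured by UMIs of the 8 genes (top) or of *Pecam1* plus *Cdh5* (bottom) per 10000 UMIs of the spot; grey spots have fewer than 500 UMIs. The 8 genes are found in 88.2% of the spots of Day 7, and endothelial UMIs are sparse on Day 14, where the pair is at 69.0 CPM.

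In a split of the spots made after the data were seen, those with a thinned *Pecam1* or *Cdh5* UMI were set against the others, with levels from all their UMIs. On Day 3 the 8 genes were at a median of 566 CPM over 20 draws in spots with an endothelial UMI and 373 CPM in the others, a median log2 ratio of 0.59 (range over draws 0.17 to 0.91). The excess was largest for *Mcam*, at 208 and 80.8 CPM (log2 ratio 1.37, 0.49 to 2.04). *Mcam* is also transcribed in endothelium, so its excess cannot be credited to pericytes, and no sum without *Mcam* was made. *Pdgfrb* was at 101 and 68.4 CPM (0.56, 0.15 to 1.03). *Notch3* (0.34, -0.64 to 0.71) and *Kcnj8* (0.13, -1.65 to 1.16) were above 0 in 14 and 12 of 20 draws. *Rgs5* was above 0 in 19 of 20 draws with a wide range (0.46, -0.34 to 1.46), and *Abcc9* lay on both sides of 0 (-0.07, -0.41 to 0.53). *Cspg4* and *Higd1b*, with few UMIs, had lower medians in spots with an endothelial UMI (-0.79 and -0.69), and were above 0 in 5 and 1 of 20 draws. The endothelial gene *Plvap*, which was not used for the split, gave 1.87 (1.31 to 2.47). On Day 7 the median log2 ratio of the 8 genes was 0.18 (-0.16 to 0.42) and that of *Plvap* 0.37. On Day 14 the values were 0.20 (-0.12 to 0.32) and 0.23, so on these days the split separated *Plvap* little and says little of the pericyte genes.

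**Figure D4:**
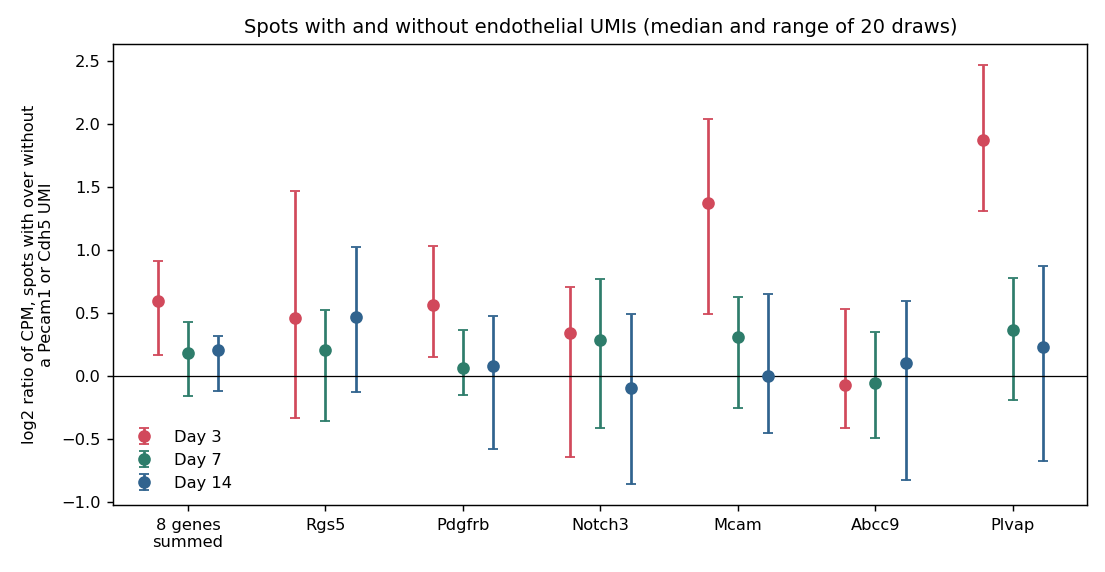
Log2 ratio of CPM in spots with over spots without a *Pecam1* or *Cdh5* UMI, for the 8 genes summed, 5 members and the endothelial gene *Plvap*; points are the median and bars the range of 20 random thinnings of the same section, not an error between sections. On Day 3 *Mcam* and *Plvap* lie above 0 in all draws, and *Abcc9* lies around 0 on every day.

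The fourth comparison described where in each section the genes lay. Spots were clustered into 5 regions per section without the members or other vascular genes, and each region is given by number, most with their 3 leading genes. The region with the highest level, chosen by that value, was region 1 on Day 3 (477 against 376 CPM in the rest, log2 ratio 0.34, 0.08 to 0.60). It was region 4 on Day 7 (779 against 682 CPM, 0.19, -0.04 to 0.41) and region 1 on Day 14 (406 against 307 CPM, 0.40, 0.25 to 0.56). The Day 7 region did not differ from the rest beyond counting error. Among regions with at least 20 member UMIs, the lowest were region 2 on Day 3 (259 against 410 CPM, log2 ratio -0.66, -1.13 to -0.23), region 3 on Day 7 (571 against 692 CPM, -0.28, -0.56 to -0.01) and region 4 on Day 14 (235 against 345 CPM, -0.55, -0.83 to -0.28). Single members differed in opposite directions.

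On Day 3, region 1 (183 spots, led by *Tnnt1*, *Myl2* and *Trim54*) was rich in skeletal muscle, with 110499 CPM of a muscle list and 95.4 CPM of *Pecam1* plus *Cdh5*. *Rgs5* was at 246 CPM there and 77.8 CPM in the rest (log2 ratio 1.66, 1.23 to 2.08), and *Abcc9* at 107 and 27.3 CPM (1.97, 1.28 to 2.65). *Mcam* was at 26.0 and 114 CPM (-2.13, -3.28 to -1.17) and *Pdgfrb* at 43.4 and 78.5 CPM (-0.86, -1.74 to -0.07). Region 5 (105 spots, led by *Cxcl5*, *Timp1* and *Hmox1*) held more endothelial signal, with the pair at 332 against 141 CPM in the rest. There the order was reversed. *Mcam* was at 201 and 57.4 CPM (1.81, 1.36 to 2.27) and *Pdgfrb* at 112 and 56.6 CPM (0.98, 0.45 to 1.51), while *Rgs5* was at 60.1 and 129 CPM (-1.11, -1.73 to -0.53).

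The members' own UMIs give the same contrast without the total. *Rgs5* made up 51.5% of them in region 1 of Day 3 (43.6 to 59.4) and 13.4% in region 5 (9.14 to 18.6), and *Mcam* 5.45% (2.52 to 10.1) and 44.7% (38.0 to 51.6). The intervals do not overlap for either gene. For each endothelial UMI the 8 genes had 1.36 UMIs in region 5 (1.10 to 1.67), while region 1 held 165 UMIs of the 8 genes and 33 of the pair (interval of the ratio 3.42 to 7.50). *Notch3* was highest in region 3 (led by *Aldh3a1*, *Cidea* and *Defb8*, with 17024 CPM of an epidermis list and 5934 CPM of the hair follicle and sebaceous gland list), at 49.7 against 17.9 CPM (1.48, 0.63 to 2.37).

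On Day 14, *Rgs5* and *Abcc9* again parted from *Mcam*, but the endothelial pair did not follow the Day 3 pattern. In the muscle-rich region 3 (160 spots, led by *Trdn*, *Hba-a1* and *Hbb-bt*), *Rgs5* was at 128 against 61.1 CPM in the rest (log2 ratio 1.07, 0.64 to 1.48), *Abcc9* at 94.1 against 45.1 CPM (1.06, 0.55 to 1.54) and *Higd1b* at 19.2 against 6.27 CPM (1.62, 0.34 to 2.76). *Mcam* was at 19.2 against 57.9 CPM (-1.59, -2.74 to -0.64) and *Notch3* at 23.5 against 52.6 CPM (-1.16, -2.19 to -0.29). *Pecam1* plus *Cdh5* stood at 118 against 63.5 CPM there (0.89, 0.44 to 1.31), and the 8 genes had 3.04 UMIs per endothelial UMI, the lowest of the 4 regions with at least 20 member UMIs. *Mcam* was instead highest in region 1 (251 spots), at 83.0 against 43.9 CPM (0.92, 0.54 to 1.29). In region 2 (223 spots, led by *Gm11563*, *Fbp1* and *Tchhl1*, with 10082 CPM of the hair list and 680 CPM of the melanocyte list) *Cspg4* was at 39.0 against 22.7 CPM (0.78, 0.27 to 1.31), *Rgs5* at 55.2 against 81.7 CPM and *Abcc9* at 36.9 against 64.5 CPM. The share of hair and melanocyte RNA in the *Cspg4* signal was not tested.

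On Day 7 the muscle-rich region 3 (89 spots, led by *Trdn*, *Myh1* and *Myh2*) again held more *Abcc9*, at 116 against 55.2 CPM (log2 ratio 1.07, 0.40 to 1.68). *Rgs5* did not differ there beyond counting error, at 189 against 208 CPM (-0.14, -0.64 to 0.32). In region 2 (102 spots, led by *Isg15*, *Cmtm7* and *Rpl35*), with 13391 CPM of the granulation tissue list, the highest of this section, *Higd1b* was at 23.9 against 10.7 CPM (1.16, 0.43 to 1.90), *Rgs5* at 237 against 189 CPM (0.32, 0.13 to 0.51) and *Abcc9* at 37.9 against 69.8 CPM (-0.88, -1.32 to -0.46). *Abcc9* was thus above the rest of the section in the muscle-rich region of all 3 days, and *Rgs5* on Day 3 and Day 14 only. Whether the *Rgs5* effect differs between days was not tested, since each day is 1 section.

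**Figure D5:**
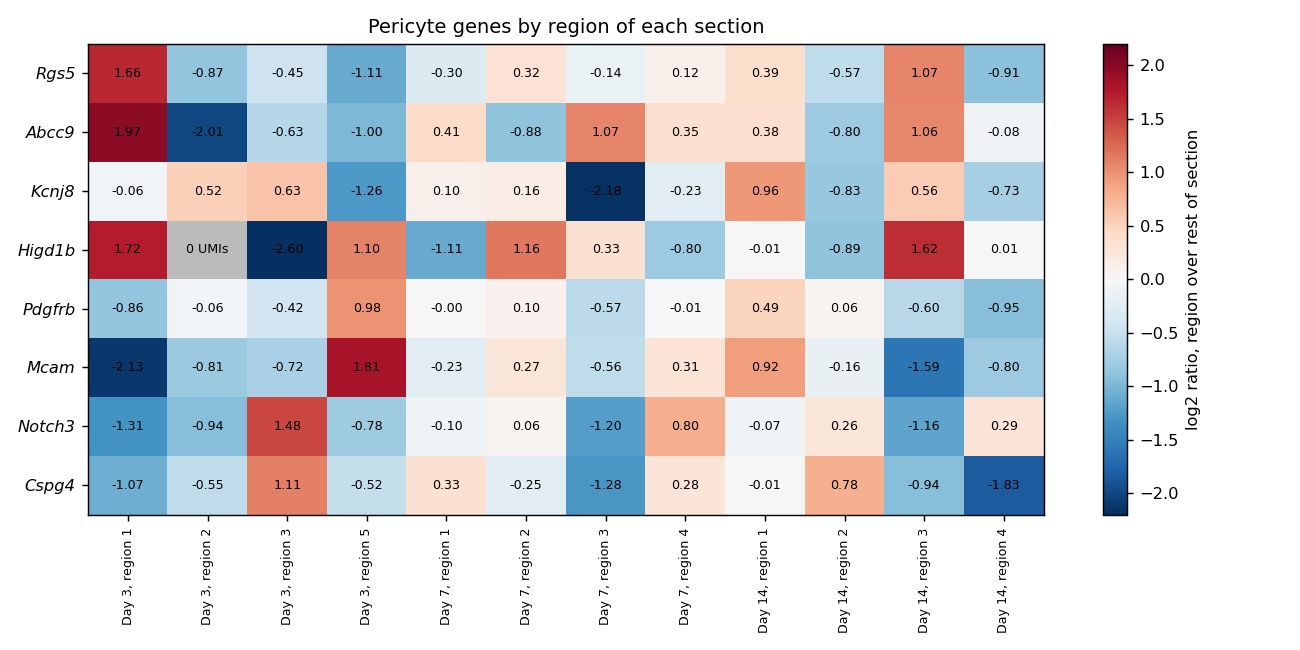
Log2 ratio of CPM in a region over the rest of its section for each of the 8 genes (rows), in regions with at least 20 member UMIs (columns, with day and region number). *Abcc9* is high in the muscle-rich region of each day (1.97, 1.07 and 1.06), and *Mcam* is low in those of Day 3 and Day 14 and high in region 5 of Day 3.

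With the muscle-rich regions left out, an alternative chosen after the data were seen, 6 of the 8 genes were higher on Day 7 than on Day 3, where 14.7% of 12427 genes were, since *Abcc9* had a log2 ratio of 1.01 (0.52 to 1.54). That of *Rgs5* became 1.42 (1.13 to 1.71) against 0.90 with all regions. For Day 14 over Day 3, *Rgs5* went from -0.70 to -0.35 (-0.68 to -0.01), under the fold, and *Abcc9* from 0.22 to 0.72 (0.22 to 1.26).

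Across spots with at least 500 UMIs, the 10 genes whose pattern was most like the summed members, by the lowest of the 3 Pearson correlations of log values among 5546 genes, were *Hspg2*, *S100a6*, *Igfbp7*, *Tmsb4x*, *Rpsa*, *Mfap4*, *Serpinh1*, *S100a11*, *Atox1* and *Hsp90ab1*. *Hspg2*, which encodes the basement membrane proteoglycan perlecan, had r = 0.17, 0.20 and 0.21 over 520, 539 and 689 spots. These correlations are weak, and the spots of a section share depth and composition (r of the members with spot depth was 0.29, 0.24 and 0.12). After thinning to 1000 UMIs, 0 of the 10 genes were also among the 10. On Day 14 the all-gene median r was 0.036. *Rgs5* (0.002), *Pdgfrb* (0.009), *Notch3* (-0.027), *Abcc9* (-0.056) and *Higd1b* (0.026) had a lower r with the set. *Cspg4* (0.089), *Mcam* (0.056) and *Kcnj8* (0.059) had a higher r. On Day 7 all members were above the median of 0.056. On Day 3 all but *Notch3* (0.042) and *Abcc9* (0.031) were above the median of 0.052. The Day 14 sum thus cannot be read as a pattern shared by all members.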

How the data were processed

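Frozen skin wound sections of Day 3, Day 7 and Day 14 were measured with Visium. The deposited matrices hold raw UMI counts per gene and spot, which the authors made from MGI reads with Space Ranger 1.3.0 on mm10 per the labels, without normalization. Groups came from the labelled day. The members and gene lists were chosen with earlier results of these data known. All 8 members are named. Of the lists, genes past the fold or among the 3 most abundant could be named, with the 3 leading genes of a region (at least 100 UMIs in the section) and the 10 genes most like the members (at least 50 UMIs in each section). *Pdgfb*, *Abcc8* and the use of *Plvap* in the split were chosen after their values were seen. Some genes the rule would name are not reported here.

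Counts were summed over marked spots. Levels carry exact Poisson, shares exact Clopper-Pearson, and ratios exact conditional 95% intervals, covering counting error only. Intervals of shared-spot ratios are Clopper-Pearson over spots taken as independent, with the partner share held fixed, and leave out the draw of UMIs. A call needed a 1.5-fold difference and an interval that left out 1, in genes that had 20 UMIs or more in the sections compared. Ratios per endothelial UMI are conditional odds ratios. Regions came from k-means (5 centres, 20 principal components of 2000 variable genes, 20 starts). No doublet caller was run. The interval code was tested on simulated data. Thinning used 1 fixed draw, and 20 draws for its range. Alternatives covered spot weighting, scaling (edgeR 4.0.16, DESeq2 1.42.0), denominators, thinning and clustering. Leaving out muscle-rich regions (muscle list level 2 times or more that of their section) and the median of 20 draws were added after seeing the data. Python 3.11.15, scipy 1.17.1, scikit-learn 1.9.0 and R 4.3.3 were used.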

Additional observations from a re-analysis of the deposited data

Results flagged for a closer look

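All 8 genes had UMIs in spots outside the marked tissue, above the limit of 3 counts that a count of 0 allows. In the comparisons above, these spots entered only the values given for all spots of the slide. *Rgs5* had 255, 1101 and 449 such UMIs on Day 3, Day 7 and Day 14. *Pdgfrb* had 68, 635 and 231, *Cspg4* 28, 192 and 103, *Notch3* 53, 237 and 175, and *Mcam* 88, 595 and 165. *Kcnj8* had 39, 153 and 38, *Abcc9* 104, 392 and 341, and *Higd1b* 8, 69 and 21. In CPM, *Rgs5* was 1.35-fold higher outside than under tissue on Day 3 (1.12 to 1.64) and 1.40-fold on Day 14 (1.21 to 1.63), but on Day 7 it was at 0.824 times its level under tissue (0.755 to 0.901). *Abcc9* was 1.42-fold (1.05 to 1.94) and 1.44-fold (1.22 to 1.71) higher outside on Day 3 and Day 14, and 1.05-fold on Day 7 (0.891 to 1.23). *Mcam* and *Pdgfrb* were lower outside on every day, at 0.535, 0.727 and 0.648 times and 0.557, 0.579 and 0.782 times their level under tissue. Here, under tissue means the marked spots. The study's appendix describes spots selected on the slide photographs as its region of interest, so the marked spots may be a chosen part of the tissue. What tissue the spots outside them cover was not tested.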

How the results depend on the processing

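No paired analysis was possible because each day had 1 section, and for the same reason no section could be left out. Of 466 alternative values, 3 changed direction among results whose main interval left out no change. Per *Cdh5* UMI the Day 7 over Day 3 log2 ratios of *Mcam* and *Abcc9* were -0.069 and -0.025. Thinned to 500 UMIs, the Day 3 shared-spot ratio was 0.92. Changes of sign in results whose main interval held no change were not counted. Besides the 3, 27 alternatives for results on the set fell outside the main interval or, for counts, lay more than 1.5-fold from the main count. So did 42 alternatives for single genes or the endothelial pair. The remaining 102 and 292 did neither. Log2 ratios of the summed genes moved as follows. With all spots of the slide, Day 7 over Day 3 was 0.61 with 3 genes higher, per endothelial UMI 0.52, and Day 14 over Day 7 -0.85. Day 14 over Day 3 was -0.40 under TMM and -0.42 under DESeq2 factors, with 1 gene higher under each and with all spots, -0.050 as the mean of spot CPM and -0.11 without *Rgs5*. Day 14 over Day 7 was then -1.18, -1.17, -0.93 and -0.86. The all-gene median for Day 14 over Day 3 was 0.19, 0.04 under TMM, 0.02 under DESeq2 and 0.37 as the mean of spot CPM. Per endothelial UMI, Day 7 over Day 3 was 1.18 per *Pecam1*, 0.33 per *Cdh5* and 1.07 without muscle-rich regions, Day 14 over Day 3 was 1.58 without those regions, and Day 14 over Day 7 was 0.079 per *Pecam1* and 0.86 per *Cdh5*. The Day 14 shared-spot ratio was 0.70 thinned to 500 UMIs, and the Day 3 split was 0.59 as the median of 20 draws. Of the 10 most alike genes, 5 were shared using spots with at least 1000 UMIs, 1 by Spearman correlation, 3 without *Rgs5* and 0 after thinning. The cause of these shifts was not tested. Depth limits *Higd1b* and *Cspg4* most, with 9 and 29 UMIs on Day 3.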
